A study of Homo sapiens with 6 samples.

Results

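Keratin genes were followed through a chromatin immunoprecipitation sequencing (ChIP-seq) dataset on NuMA, labelled NuMA (TDIF), a nuclear protein that gathers microtubules at the spindle poles in mitosis. Members were the promoter windows of genes whose symbol is KRT followed by digits and an optional letter, so that keratin-associated proteins were left out. Of 19957 windows, 50 were keratin promoters: 25 type I genes on chromosome 17, 24 type II genes on chromosome 12, and KRT18, a type I gene by sequence that lies beside the type II genes on chromosome 12. The windows carry Ensembl identifiers, and symbols were given by position, from the nearest RefSeq start of a protein-coding gene on the same strand within 1000 bp of the window centre. The keratin starts lay a median of 15 bp from their centres, 45 of the 50 within 100 bp, and KRT7 was farthest at 724 bp.

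The study used MRC5, a wild-type human lung fibroblast line, with no treatment named in the labels. NuMA ChIP and ChIP with immunoglobulin G (IgG) were each made in 2 libraries, and 1 input library of sheared chromatin was sequenced for each arm. Each window reaches 1000 bp to either side of a transcription start, and the deposited counts total 366594 to 1080879 per library, so that 1 count equals 0.925 to 2.73 CPM, counts scaled to 1000000 promoter counts per library. The labels do not say whether libraries of a group came from separate cultures, so p-values measure only the spread between these libraries.

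Keratins are the intermediate filament proteins of epithelial cells. A filament forms only when an acidic type I keratin pairs with a basic type II keratin, and the pairs are worn in sets: some in simple epithelia, others in the layers of stratified epithelia, the inner root sheath of the hair follicle, or the hair shaft. In the human genome the genes of each type lie side by side in a cluster, and the type I cluster is interrupted by a large group of keratin-associated protein genes. Fibroblasts chiefly build their filaments from vimentin. The counts are DNA counts at promoters and give no level of expression.

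Keratin promoters held less DNA in NuMA ChIP than in IgG ChIP. On trimmed-mean (TMM) scaling 27 of the 49 windows tested were lower, 0 were higher and 22 did not pass the test (edgeR quasi-likelihood test, Benjamini-Hochberg adjusted p under 0.05 over all 15727 windows tested). That is 55.1% lower, against a background of 23.9% lower and 16.8% higher over all windows. At an unadjusted p under 0.05 edgeR gave 31 lower and 0 higher, where 28.6% of all windows were lower and 22.1% higher. DESeq2 called 13 lower and 0 higher, against 13.5% and 10.4% of all windows. The median log2 fold change of the keratins was -1.196, a 2.29-fold difference, against -0.04 over all windows. Scaling on the flanks of the summed profile, far from the starts, raised the median of all windows to 1.26, and 2 keratins were then lower and 5 higher, where 2.73% of all windows were lower and 48.1% higher. The keratin median relative to that of all windows was -1.17 there and -1.15 on TMM scaling. Fitted values and calls between NuMA and IgG below are on TMM scaling unless stated, and so relative to the other promoters. CPM values, and the order of libraries read from them, are on total promoter counts without TMM. On total-count scaling the fitted median of all windows was -0.21.

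**Figure D1:**
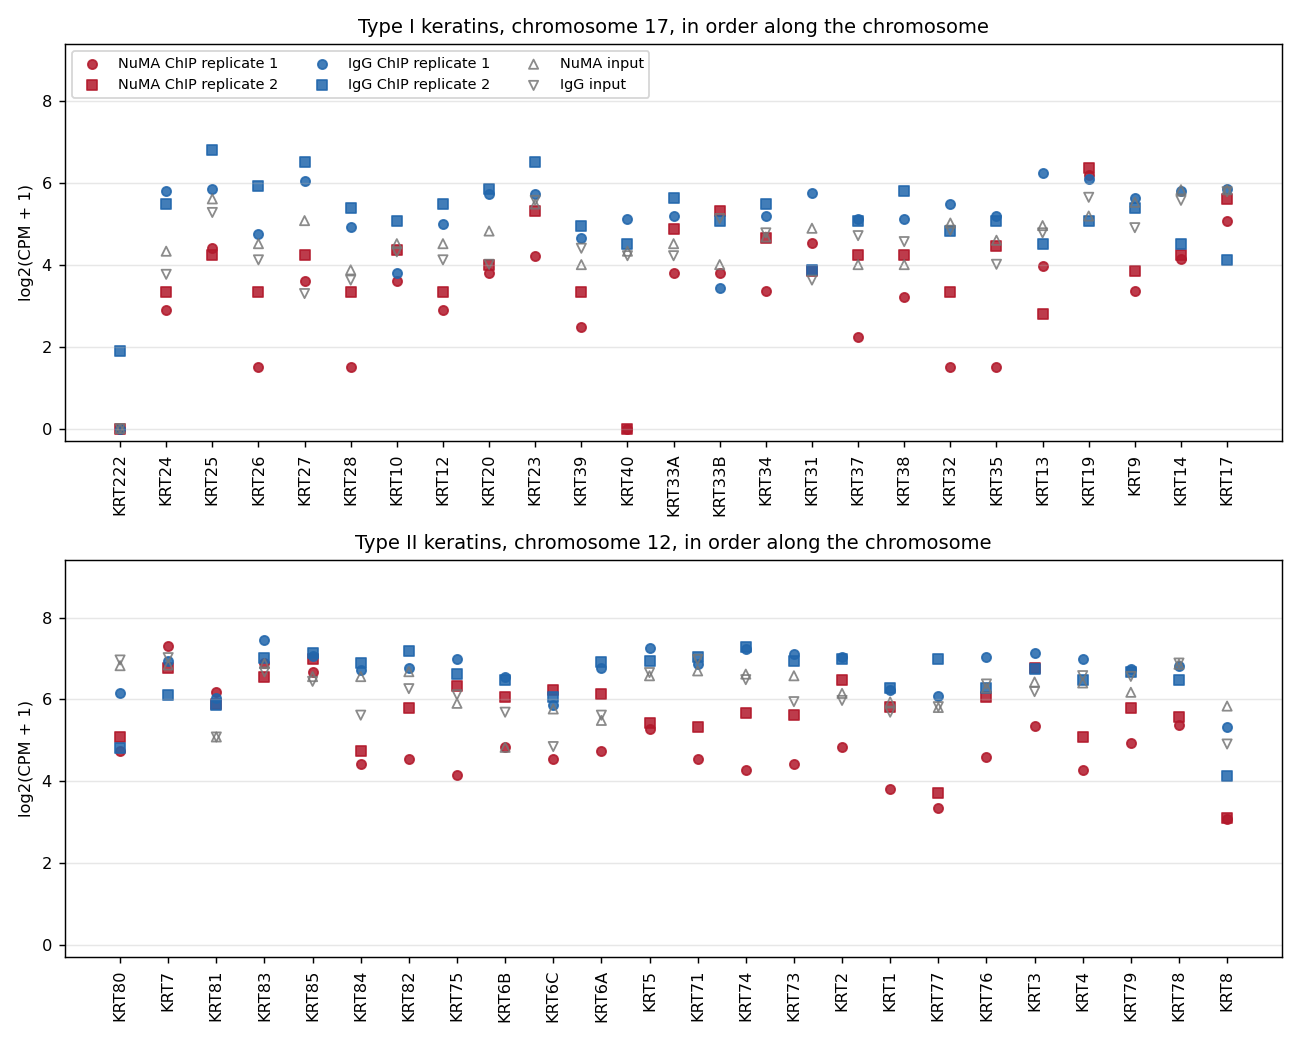
Level of each keratin promoter window in each library, as log2(CPM + 1), for the type I genes on chromosome 17 (upper) and the type II genes on chromosome 12 (lower), in order along the chromosome. Filled red symbols are the 2 NuMA ChIP libraries, filled blue symbols the 2 IgG ChIP libraries and open grey triangles the 2 inputs; the red symbols lie below the blue ones in 38 of these 49 windows, and KRT40 has no NuMA count.

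The order of the single libraries in CPM shows the same difference without a model, though it too depends on the scaling. Both NuMA libraries lay below both IgG libraries in 39 of the 50 windows, which is the case for 39.5% of all windows with a count. Both lay above in KRT19 alone, against 27.2% of all windows, and the libraries overlapped in 10. The NuMA libraries also differed from each other, since replicate 2 was above replicate 1 in 41 of the 50 windows and their summed levels stood 1.56-fold apart. In the IgG libraries replicate 2 was above in 23 and the ratio was 0.934. The median of all windows rose too, from 22.2 CPM in replicate 1 to 31.6 CPM in replicate 2 of NuMA ChIP. In IgG ChIP it went from 43.8 to 49.1 CPM. The split of the NuMA libraries was thus not confined to keratins, and the number of all windows with replicate 2 above is not given here.

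Leaving out single libraries changed many calls, in the keratins and in the whole table. Without NuMA replicate 1 there were 8 keratins lower (8.61% of all windows), and without IgG replicate 1 there were 10, with KRT19 higher (14.1% of all windows lower). Without IgG replicate 2 there were 14 (12% of all windows), and without NuMA replicate 2 there were 25 (17.4%). In all 4 of these fits 6 genes were lower: KRT27, KRT5, KRT71, KRT74, KRT77 and KRT84. KRT25, KRT82, KRT73 and KRT4 were lower in 3 of the 4, and KRT24, KRT26, KRT75 and KRT76 in 2. KRT1, KRT2, KRT6A, KRT13, KRT23, KRT28, KRT32 and KRT79 were lower in 1, and KRT9, KRT12, KRT20 and KRT78 in 0. KRT40 was lower in 2 of the 3 fits that held it. With NuMA ChIP and IgG ChIP each set against the single input of its arm, 3 were lower, against 2.35% of all windows.

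Promoter sequences of 6 members are shown because they span the results: KRT40 had no NuMA count, KRT27 was lower in every such fit, KRT84 and KRT85 are neighbours of which KRT84 was lower and KRT85 was not, and KRT37 and KRT38 are near-identical copies. Each is the 250 bases before the RefSeq start on build GRCh38.p14 (hg38), read 5′ to 3′ on the minus strand, where all 6 genes lie. Capitals mark each CG dinucleotide and the TATA box letters TATAAA on either strand.
KRT40, chr17:40987136-40987385: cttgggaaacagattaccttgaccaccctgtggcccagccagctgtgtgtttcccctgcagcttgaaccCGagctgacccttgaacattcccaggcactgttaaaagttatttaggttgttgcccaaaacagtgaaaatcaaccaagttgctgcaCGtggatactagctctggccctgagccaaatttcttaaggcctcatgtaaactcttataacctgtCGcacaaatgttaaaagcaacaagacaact
KRT27, chr17:40782551-40782800: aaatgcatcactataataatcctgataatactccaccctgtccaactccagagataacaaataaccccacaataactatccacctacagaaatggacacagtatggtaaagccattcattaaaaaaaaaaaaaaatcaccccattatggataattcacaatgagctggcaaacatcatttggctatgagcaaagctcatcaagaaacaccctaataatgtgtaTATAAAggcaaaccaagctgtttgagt
KRT84, chr12:52385653-52385902: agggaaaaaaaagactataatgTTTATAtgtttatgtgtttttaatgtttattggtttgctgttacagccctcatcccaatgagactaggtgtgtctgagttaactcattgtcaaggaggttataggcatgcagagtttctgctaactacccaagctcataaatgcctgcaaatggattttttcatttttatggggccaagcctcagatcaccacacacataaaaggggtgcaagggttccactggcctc
KRT85, chr12:52367482-52367731: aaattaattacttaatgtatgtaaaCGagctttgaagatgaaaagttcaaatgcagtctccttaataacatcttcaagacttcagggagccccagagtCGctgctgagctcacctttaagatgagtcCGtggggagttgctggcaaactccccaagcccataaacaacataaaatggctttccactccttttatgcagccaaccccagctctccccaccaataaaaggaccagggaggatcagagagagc
KRT37, chr17:41424586-41424835: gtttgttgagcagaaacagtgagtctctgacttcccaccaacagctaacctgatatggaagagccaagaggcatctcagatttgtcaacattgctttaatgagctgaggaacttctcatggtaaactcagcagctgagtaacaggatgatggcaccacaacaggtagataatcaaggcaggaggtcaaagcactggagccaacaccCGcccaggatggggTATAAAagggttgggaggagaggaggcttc
KRT38, chr17:41440984-41441233: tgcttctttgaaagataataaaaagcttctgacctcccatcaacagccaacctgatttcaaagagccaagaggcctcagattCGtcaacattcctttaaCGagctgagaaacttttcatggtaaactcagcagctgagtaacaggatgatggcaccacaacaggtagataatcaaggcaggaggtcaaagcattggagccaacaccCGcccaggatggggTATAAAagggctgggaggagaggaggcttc

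Type I and type II promoters differed more in how much DNA they held than in how NuMA and IgG compared. The mean level of a type I window was 12.5 and 19.8 CPM in the NuMA libraries, 41.0 and 41.8 CPM in the IgG libraries, and 27.4 and 24.4 CPM in the NuMA and IgG inputs. A type II window held a mean of 38.2 and 59.9 CPM, 110 and 99.5 CPM, and 79.5 and 75.9 CPM in the same order. Type II windows were thus the higher set in all 6 libraries, inputs included, while a window of the whole table holds 50.1 CPM on average in every library by construction.

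The ratio of type II to type I was 3.05 and 3.03 in the NuMA libraries. It was 2.68 and 2.38 in the IgG libraries, and the inputs gave 2.91 and 3.12. The ratio was higher in both NuMA libraries than in both IgG libraries, and the NuMA values lay between those of the inputs. Of the type I windows, 12 of 24 tested were lower in NuMA than in IgG ChIP, with a median log2 fold change of -1.70. Of the type II windows, 15 of 24 were lower, with a median of -1.16. Over all windows tested, 23.9% were lower. On flank scaling these medians became -0.40 and 0.13, so that the type II direction turned, and relative to all windows they were -1.66 and -1.13. A stricter filter asked every library of NuMA or of IgG ChIP to hold 30 counts or more. There 3 of 5 type I and 16 of 19 type II windows were lower (20.2% of all windows), with medians of -1.77 and -1.73. A window can pass this filter through IgG ChIP alone, as KRT27 did with 12 and 12 NuMA counts and 40 and 33 IgG counts. Single values also moved, that of KRT5 from -1.62 to -2.21. These counts and medians therefore cannot tell whether the gap between the types holds. No test was made between the types, whose members are chromosomal neighbours and not replicates.

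**Figure D2:**
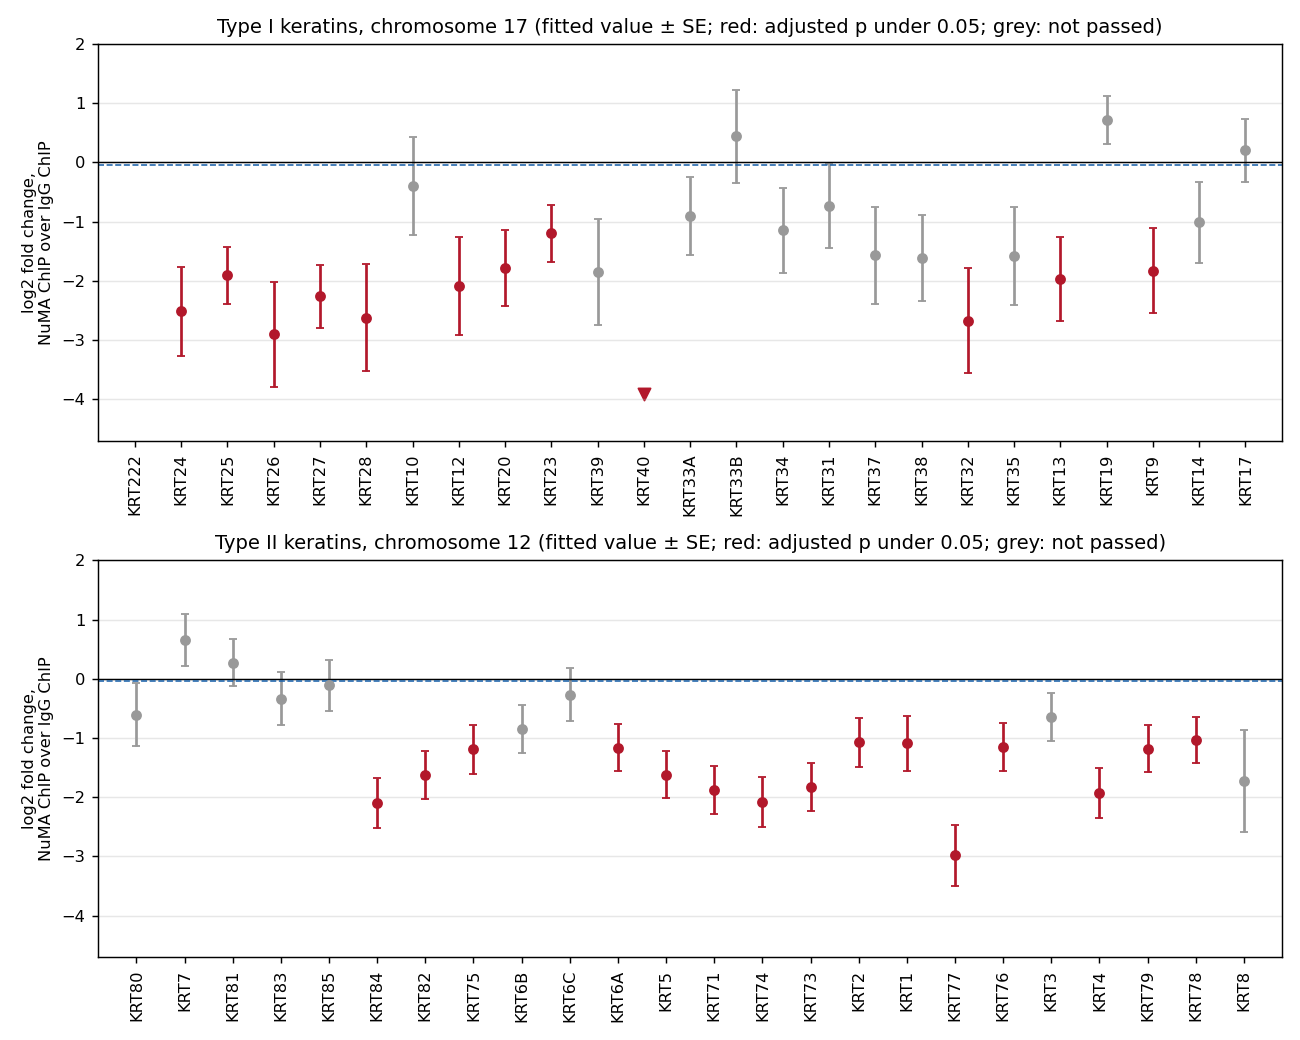
Fitted log2 fold change of NuMA over IgG ChIP (TMM scaling) with its standard error (SE) for each keratin window, in order along chromosome 17 (upper) and chromosome 12 (lower). Red points passed at an adjusted p under 0.05, grey points did not, and KRT222 was not tested. The triangle sets KRT40 at its value on a floor of 3 counts. The dashed line is the median of all windows (-0.04). On flank scaling that median is 1.26 and only KRT40 and KRT77 remain lower.

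Inner root sheath keratins stiffen the sleeve around the growing hair. Those with a window within 1000 bp were all lower on TMM scaling. All 4 type I members, KRT25 to KRT28, passed, with a median log2 fold change of -2.44. So did all 3 tested type II members, KRT71, KRT73 and KRT74, with a median of -1.88, where 23.9% of all windows were lower. On flank scaling 0 of these 4 and 0 of these 3 passed. KRT72, of the same set, had no window within 1000 bp, and the nearest one went the other way, as given below. KRT27 stood at 11.1 and 18.1 CPM in NuMA ChIP, 64.9 and 90.02 CPM in IgG ChIP, and 32.9 and 8.85 CPM in the inputs. Its NuMA libraries lay far below the IgG libraries but between the inputs. The difference was 4.79-fold (log2 -2.26 ± 0.53 SE, edgeR adjusted p = 6.55e-04).

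KRT26 and KRT28 had lower counts still. In KRT26 the NuMA libraries held 2 and 6 counts, the IgG libraries 16 and 22, and the inputs 16 and 13 (log2 -2.90 ± 0.88, edgeR adjusted p = 0.00727). In KRT28 the NuMA counts were 2 and 6, the IgG counts 18 and 15, and the input counts 10 and 9 (log2 -2.62 ± 0.90, edgeR adjusted p = 0.0171). For both genes the groups did not overlap, and the DESeq2 test did not call KRT28. KRT25 was 3.74-fold lower, with 20.4 and 18.1 CPM in NuMA against 56.8 and 112 CPM in IgG ChIP (edgeR adjusted p = 0.00153).

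Among the type II inner root sheath genes, KRT74 held 18.5 and 49.7 CPM in NuMA ChIP, 149 and 155 CPM in IgG ChIP, and 97.3 and 88.5 CPM in the inputs. Both NuMA libraries were below both inputs, and both IgG libraries above them. It was 4.22-fold lower in NuMA than in IgG (log2 -2.08 ± 0.42, edgeR adjusted p = 9.75e-05). KRT71 was 3.67-fold lower (edgeR adjusted p = 2.47e-04) and KRT73 was 3.55-fold lower (edgeR adjusted p = 3.55e-04), and in both the NuMA libraries lay below every other library. A window 1414 bp from the start of KRT72, outside the distance used here, held 225 and 148 CPM in NuMA ChIP against 117 and 109 in IgG ChIP. Its value was above 0 (log2 0.92 ± 0.49) but missed the threshold (edgeR adjusted p = 0.117). Against input this window was higher in NuMA ChIP (log2 1.75, edgeR adjusted p = 0.00376).

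Hair shaft keratins were mostly below 0, but only some passed. Of 10 type I members, KRT32 and KRT40 were lower (20%, near the 23.9% of all windows) and 8 missed the threshold. Values were below 0 in 9 of these 10, with a median log2 fold change of -1.57. Over all windows, 8027 of 15727 values were below 0. Of the type I members, 0 held 30 counts in each library of NuMA or of IgG ChIP. Of 6 type II members, KRT75, KRT82 and KRT84 were lower (50%) and 3 missed the threshold. Values were below 0 in 5 of these 6, with a median of -0.76. KRT75 belongs to the companion layer between the hair and its sheath, and was grouped here.

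KRT40 was the only tested keratin with no count in either NuMA library. The IgG libraries held 21 and 8 counts and the inputs 14 each. On these counts KRT40 was lower in NuMA than in IgG ChIP (edgeR adjusted p = 2.31e-04). With NuMA ChIP set to a floor of 3 counts over its libraries, a ratio that was not itself tested, KRT40 was 15.0-fold lower. That value depends on the floor and is not a bound. The exact 95% interval of the share starts at 11.4-fold. Such intervals cover counting error only, since reads without molecular identifiers are not independent molecules. KRT40 did not pass once NuMA replicate 1 was left out, nor with each ChIP group set against the input of its arm. KRT32, with 2 and 6 NuMA counts against 27 and 10 IgG counts and 23 and 22 input counts, was 6.37-fold lower (edgeR adjusted p = 0.0140).

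The remaining type I hair keratins, KRT31, KRT33A, KRT33B, KRT34, KRT35, KRT37, KRT38 and KRT39, had log2 fold changes from -1.85 for KRT39 to 0.44 for KRT33B. In KRT33B the NuMA libraries held 13.0 and 39.1 CPM and the IgG libraries 9.74 and 32.7 CPM, so the groups overlapped almost fully (SE 0.78, edgeR adjusted p = 0.660). KRT37 and KRT38, whose 300-base promoters are 91% identical, gave log2 values of -1.57 and -1.62 (edgeR adjusted p = 0.111 and 0.0634). How reads from near-identical copies were assigned is not given in the sources used here, so the values of this pair, and of KRT31 and KRT33A (77.3% identical), are less certain.

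On chromosome 12 the consecutive keratin windows of KRT84, KRT82 and KRT75 were lower. The consecutive keratin windows of KRT81, KRT83 and KRT85 did not pass. KRT84, a hard keratin of the tongue papillae, held 20.4 and 25.6 CPM in NuMA ChIP, 104 and 117 CPM in IgG ChIP, and 93.2 and 48.0 CPM in the inputs. The NuMA libraries lay below all 4 others, and the difference was 4.29-fold (log2 -2.10 ± 0.42, edgeR adjusted p = 9.67e-05). KRT82 was 3.09-fold lower (edgeR adjusted p = 0.00134) and KRT75 was 2.28-fold lower (edgeR adjusted p = 0.0185).

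Next to KRT84, KRT85 of the hair cortex and matrix held 100.8 and 125 CPM in NuMA ChIP, 133 and 139 CPM in IgG ChIP, and 93.2 and 85.9 CPM in the inputs. Its NuMA libraries were thus above both inputs and just below both IgG libraries (log2 -0.11 ± 0.44, edgeR adjusted p = 0.847). KRT81 and KRT83, also of the hair cortex, had log2 values of 0.27 and -0.33 (edgeR adjusted p = 0.588 and 0.549). The windows of KRT81, KRT83 and KRT85, with those of KRT80 and KRT7, are the first 5 keratin windows by position on chromosome 12. None of the 5 passed, and KRT86 had no window within 1000 bp. Whether KRT84 and KRT85 differ in response was not tested.

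Keratins of stratified epithelia were lower in 4 of 7 type I and 9 of 13 type II windows, against 23.9% of all windows. Their medians were -1.83 and -1.09. KRT5 and KRT14 form the pair of basal keratinocytes. KRT5 held 37.9 and 42.2 CPM in NuMA ChIP, 153 and 123 CPM in IgG ChIP, and 94.6 and 99.8 CPM in the inputs, and was 3.07-fold lower (log2 -1.62 ± 0.40, edgeR adjusted p = 0.00118). KRT14 held 16.7 and 18.1 CPM in NuMA ChIP, 55.2 and 21.8 CPM in IgG ChIP and 56.2 and 46.8 CPM in the inputs (log2 -1.01 ± 0.68, edgeR adjusted p = 0.222). In both genes the 2 NuMA libraries were the lowest, but the IgG libraries of KRT14 stood far apart.

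KRT1 and KRT10 take over in the differentiating layers above. KRT1 was 2.13-fold lower and only just passed (log2 -1.09 ± 0.46, edgeR adjusted p = 0.0486), with NuMA at 13.0 and 55.7 CPM and IgG at 74.6 and 76.4 CPM. Its call was lost in 9 of 13 alternatives and kept in 4. KRT10 held 11.1 and 19.6 CPM in NuMA ChIP against 13.0 and 32.7 CPM in IgG ChIP, which overlapped (log2 -0.40 ± 0.83, edgeR adjusted p = 0.709). KRT2, of the upper epidermal layers, was 2.11-fold lower (edgeR adjusted p = 0.0292), and KRT9, of palm and sole, was 3.55-fold lower (edgeR adjusted p = 0.0364). The call of KRT2 was kept in 6 of 14 alternatives and that of KRT9 in 5 of 13.

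KRT6A, KRT6B, KRT6C, KRT16 and KRT17 are induced in wounded and stressed skin. KRT6A held 25.9 and 69.3 CPM in NuMA ChIP, 107 and 120 CPM in IgG ChIP and 43.9 and 48.0 CPM in the inputs (2.24-fold lower, log2 -1.16 ± 0.40, edgeR adjusted p = 0.0167). Its near copies KRT6B and KRT6C had log2 values of -0.84 and -0.27 and did not pass (edgeR adjusted p = 0.0822 and 0.635). In all 3 copies the inputs lay below both IgG libraries, and NuMA replicates 1 and 2 stood on opposite sides of at least 1 input. These genes are near-identical copies, so the values of each are less certain.

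KRT17 held 32.4 and 48.2 CPM in NuMA ChIP, 56.8 and 16.4 CPM in IgG ChIP, and 56.2 and 54.3 CPM in the inputs (log2 0.21 ± 0.53, edgeR adjusted p = 0.765). Its groups overlapped. KRT16 has no window within 1000 bp. The nearest one, 3133 bp from its start, held 12.03 and 6.02 CPM in NuMA ChIP, 63.3 and 32.7 CPM in IgG ChIP and 52.1 and 65.7 CPM in the inputs (log2 -2.16 ± 0.73, edgeR adjusted p = 0.0145). Windows 2637 bp from KRT36 and 3640 bp from KRT15, both found only within this wider distance, gave a log2 value of -2.01 (edgeR adjusted p = 0.0270) and no test for lack of counts.

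The lowest type II value belonged to KRT77, a keratin of sweat gland ducts. It held 9.25 and 12.04 CPM in NuMA ChIP, 66.5 and 125 CPM in IgG ChIP, and 54.8 and 55.6 CPM in the inputs. The NuMA libraries were the lowest, the inputs nearly equal and the IgG libraries the highest. KRT77 was 7.89-fold lower in NuMA than in IgG ChIP (log2 -2.98 ± 0.52, edgeR adjusted p = 9.91e-06), and it was the 1 keratin whose call held in all 14 alternatives, flank scaling included.

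Mucosal and corneal keratins varied. KRT4 and KRT13 form the pair of the oral and oesophageal lining: KRT4 was 3.82-fold lower (edgeR adjusted p = 2.80e-04) and KRT13 was 3.90-fold lower (edgeR adjusted p = 0.0219). In KRT13 the NuMA libraries held 14.8 and 6.02 CPM and the IgG libraries 74.6 and 21.8 CPM, a wide spread within each group. Without IgG replicate 1 the difference in KRT13 was 1.52-fold and did not pass (edgeR adjusted p = 0.715). KRT12, the type I keratin of the corneal epithelium, was 4.24-fold lower (edgeR adjusted p = 0.0366), and its call was kept in 5 of 13 alternatives. Its partner KRT3 had a log2 value of -0.65 with overlapping groups (edgeR adjusted p = 0.185). KRT76, of the hard palate, was 2.22-fold lower (edgeR adjusted p = 0.0193). KRT24 was 5.70-fold lower (edgeR adjusted p = 0.00649), KRT79 was 2.27-fold lower (edgeR adjusted p = 0.0144) and KRT78 was 2.05-fold lower (edgeR adjusted p = 0.0291). In the same order, their calls were kept in 9 of 13, 8 of 14 and 6 of 14 alternatives.

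Among genes lower on TMM scaling, 7 type II genes and 1 type I gene had values above 0 on flank scaling: KRT75, KRT6A, KRT2, KRT1, KRT76, KRT79, KRT78 and KRT23. None of these 8 passed there. The 5 keratins that were higher on flank scaling, where 48.1% of all windows were higher, were KRT7, KRT17, KRT19, KRT33B and KRT81.

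Keratins of simple epithelia were the set with the highest single values. KRT19, the small type I keratin of glandular and ductal epithelia, held 72.2 and 81.3 CPM in NuMA ChIP, 68.2 and 32.7 CPM in IgG ChIP, and 35.6 and 49.3 CPM in the inputs. Both NuMA libraries lay above all 4 others, which was so in no other of the 50 members, though also in the window 1414 bp from KRT72. The NuMA to IgG difference did not pass (1.64-fold, log2 0.72 ± 0.40, edgeR adjusted p = 0.140), while against input KRT19 was higher (log2 1.32, edgeR adjusted p = 0.0111).

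KRT7, a type II partner of KRT19 in ducts, held 157 and 108 CPM in NuMA ChIP, 122 and 68.2 CPM in IgG ChIP and 114 and 129 CPM in the inputs. The groups overlapped (log2 0.66 ± 0.44, edgeR adjusted p = 0.209). KRT20, of the intestinal lining, was 3.45-fold lower (edgeR adjusted p = 0.0214) with 13.0 and 15.1 CPM in NuMA against 51.9 and 57.3 CPM in IgG ChIP. KRT23 was 2.29-fold lower (edgeR adjusted p = 0.0383). The call of KRT20 was kept in 6 of 13 alternatives and that of KRT23 in 6 of 14.

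KRT8 and KRT18 are the first keratins of the embryo and the pair of simple epithelia. The windows named for them lie on opposite strands and overlap by 916 bp. Each gene was read at a single window, so any other start of KRT8 is not covered. Windows that overlapped by at least 500 and under 1000 bp held a median of 57 input counts against 89 where nothing overlaps, so both levels may be understated. KRT8 held 7.40 and 7.53 CPM in NuMA ChIP, 38.9 and 16.4 CPM in IgG ChIP, and 56.2 and 29.1 CPM in the inputs (log2 -1.72 ± 0.86, edgeR adjusted p = 0.0962). KRT18 held 23.1 and 22.6 CPM, 45.4 and 27.3 CPM, and 35.6 and 56.9 CPM in the same order (log2 -0.51 ± 0.65, edgeR adjusted p = 0.530). In both genes the NuMA libraries agreed closely and were the lowest of the 6. KRT80 did not pass either (log2 -0.61 ± 0.53, edgeR adjusted p = 0.350), and KRT222 overlaps another window by 1961 bp, held 1 count in all 6 libraries and was not tested.

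Against input chromatin, fitted keratin values were above 0 in 41 of 49 windows for IgG ChIP and below 0 in 34 of 49 for NuMA ChIP. Over all windows tested this was so in 9690 and in 8457 of 17226. The comparisons with input share libraries with each other and with the comparison of NuMA and IgG, so they are given side by side and not as separate evidence. IgG above 0 together with NuMA below 0 was found in 28 of the 49 windows (57.1%), against 27.4% of all windows. The median log2 fold change over input was 0.74 in IgG ChIP and -0.50 in NuMA ChIP, against 0.13 and 0.03 over all windows.

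Few of these single differences passed. Against input, 5 keratins were lower in NuMA ChIP (10.2%, background 11.9% lower) and 2 were higher (background 17.2% higher) by the edgeR test. In IgG ChIP 0 keratins passed by edgeR or by DESeq2, where 0.302% of all windows passed by edgeR, 0.238% higher and 0.0639% lower. At an unadjusted p under 0.05, edgeR gave 12 keratins higher in IgG ChIP than in input and 1 lower, where 11% of all windows were higher and 4.81% lower. DESeq2 gave 3 higher and 0 lower, near the 5.33% and 1.27% of all windows.

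The keratins below input in NuMA ChIP were KRT77 (log2 -1.93, edgeR adjusted p = 0.00236), KRT80 (log2 -1.56, adjusted p = 0.00259), KRT71 (log2 -1.48, adjusted p = 0.00588), KRT4 (log2 -1.38, adjusted p = 0.0103) and KRT40, which had no NuMA count (adjusted p = 0.00905). KRT80 held 25.9 and 33.1 CPM in NuMA ChIP and 69.8 and 27.3 CPM in IgG ChIP against 112 and 124 CPM in the inputs, so that both ChIP groups were below input. The keratins above input were KRT19 and KRT81 (log2 1.45, edgeR adjusted p = 0.00693). KRT81 held 71.2 and 58.7 CPM in NuMA ChIP and 64.9 and 57.3 CPM in IgG ChIP against 32.9 CPM in each input, so that both ChIP groups were above. By DESeq2 1 keratin was lower than input and 0 were higher, against 3.26% and 10.5% of all windows. On total-count scaling, which moved the median of all windows from 0.03 to -0.41, 14 were lower and 0 higher, against 19.2% and 10.8% of all windows.

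**Figure D3:**
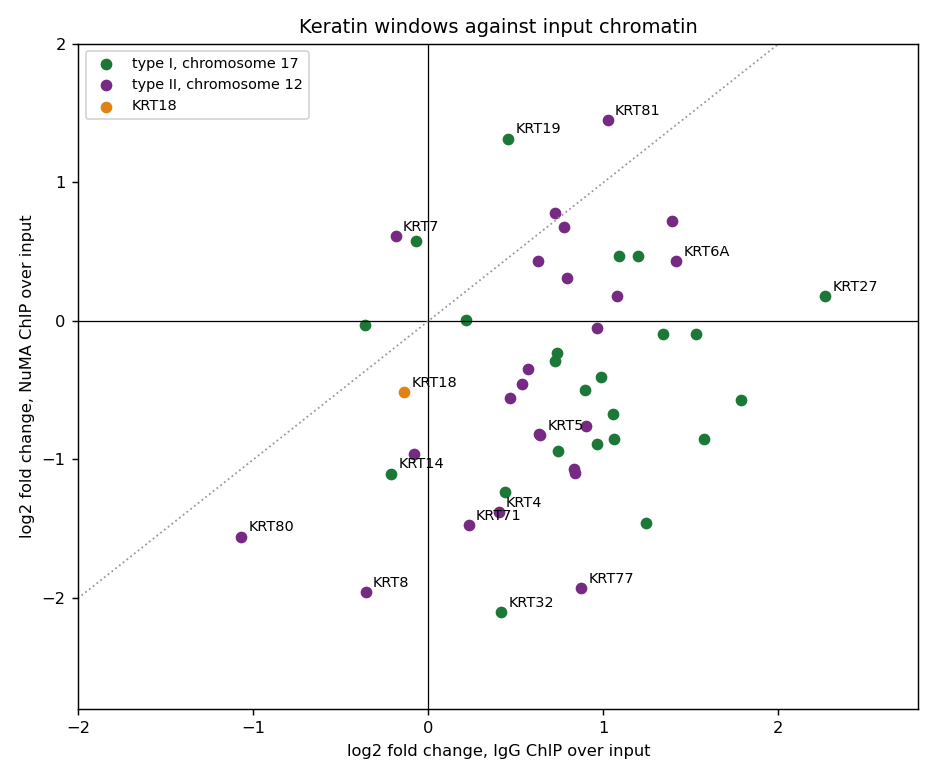
Fitted log2 fold change over the mean of both inputs for IgG ChIP (horizontal) and NuMA ChIP (vertical), 1 point per keratin window, TMM scaling. KRT40 is left out because it has no NuMA count, and the dotted line marks equal values; most points lie right of 0 and below the line, and both axes use the same inputs, so the axes are not independent.

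What the keratin promoters share in sequence was read from RefSeq, whose promoter table held 32 of the 50 members (19 type I and 13 type II) as 300-base windows, 250 before and 50 after the start. They were poor in CpG dinucleotides, with a median of 2 and a range of 0 to 8, against a median of 23 over 13192 promoters. Their median GC content was 45.8%, against 63.3%. The sequence TATAAA, sought on both strands, was present in 20 of 32 (62.5%) against 9.29% of all promoters. With its first base 35 to 20 bases before the start on the coding strand, where a TATA box acts, it was present in 15 (46.9%) against 3.79%.

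TATAAA was present in 14 of 19 type I and 6 of 13 type II promoters, and at the TATA box position in 12 and 3. Counted with the start as 0, it begins at -27 in KRT27 and at -30 in KRT37 and KRT38, and in KRT84 it was found only on the opposite strand, at -228. The GC box letters GGGCGG, on either strand, were in 6 keratins (18.8%) against 61.4% of promoters, and TGANTCA, the letters of the AP-1 site, in 0 against 5.33%. A match of letters is a description and not a binding site. Among tested keratins with TATAAA 10 of 20 were lower in NuMA than in IgG ChIP, and among those without it 11 of 12. The share over all windows was 23.9%. The median log2 fold changes lay close together, at -1.62 with TATAAA and -1.81 without it. Whether the keratins with and without TATAAA differ was not tested.

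CpG content moved with the NuMA to IgG ratio over the whole promoter table. Across 10511 windows the log2 fold change correlated with the number of CpG at Pearson r = 0.66 (Spearman 0.65), as a description of windows that share their libraries. Of windows other than keratins with at most 8 CpG, 61.7% were lower, with a median log2 fold change of -1.74. With more than 8 CpG 7.46% were lower and the median was 0.46. Of the 32 keratins, which all have at most 8 CpG, 21 (65.6%) were lower and the median was -1.71. The keratin share thus lay near that of other promoters of like CpG content. The shares given above by type and by role stand beside those of all windows, and not beside windows of like CpG content.

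Within the keratins the correlation was -0.30 over 19 type I promoters (Spearman -0.39) and 0.38 over 13 type II promoters (Spearman 0.35), with -0.03 over all 32. The median of all windows was itself nearly flat from -1.85 with 0 CpG to -1.80 with 4. It then rose to -1.41 with 7 CpG and -1.09 with 8. KRT33B with 0 CpG had the highest value of those with a sequence, and the 3 keratins with 8 CpG, KRT79, KRT75 and KRT9, were at -1.18, -1.19 and -1.83. CpG content moved with IgG ChIP too: against input the correlation over 11406 windows was -0.48 for IgG and 0.33 for NuMA. What part CpG content has in the keratin values was not tested. GC content correlated with the level in the inputs at Pearson r = 0.62 in type I (Spearman 0.41, n = 19) and 0.12 in type II (Spearman 0.37, n = 13). The median GC content was 44.0% in type I and 49.0% in type II.

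**Figure D4:**
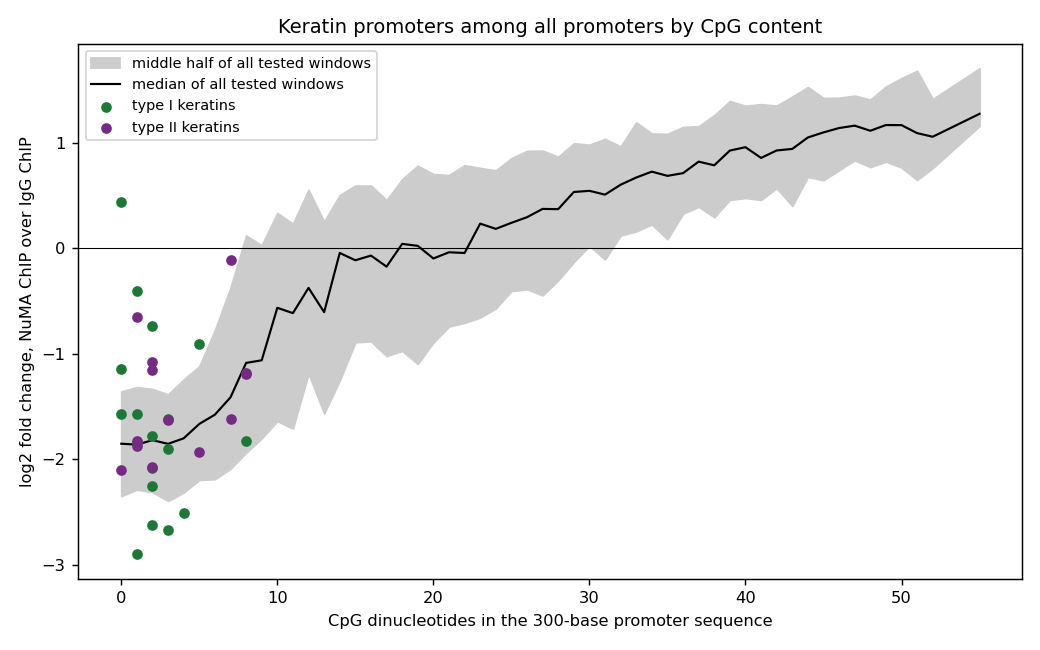
Log2 fold change of NuMA over IgG ChIP (TMM scaling) against the number of CpG dinucleotides in the 300-base promoter sequence. The line is the median and the grey band the middle 50% of all tested windows at each CpG number with at least 20 windows; green and purple points are the type I and type II keratins with a sequence, KRT40 left out, and they sit at 0 to 8 CpG around the low end of the line.

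The split of NuMA replicates seen above had a larger ratio in keratins than in windows of like CpG content, a difference that was not tested. In the 32 keratins the mean level in NuMA replicate 2 was 2.0 times that in replicate 1, with 34.8 and 17.4 CPM. In other windows with at most 8 CpG the ratio was 1.31, and with more than 8 CpG 0.976. The IgG ratio in the keratins was 1.01.

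Neighbouring genes gave a local comparison. Between the first and the last keratin on chromosome 17 lie 35 other windows, of which 32 are keratin-associated protein genes, the sulfur-rich matrix proteins of hair. Of 31 tested, 3 (9.7%) were lower in NuMA than in IgG ChIP, against 23.9% of all windows. Counts were low: the 35 windows held a median of 12 and 17 in NuMA ChIP and 14 and 12 in IgG ChIP. The type I keratins held 10 and 12, and 22 and 12, in the same order. With the minimum of 30 counts, 3 of the windows between keratins were tested and 0 were lower. What part the low counts have in this share was not tested. On the main filter the other tested windows did not pass, and the median was -0.31. Against input, 6 of 33 (18.2%, background 17.2%) were higher in NuMA ChIP and the others did not pass. Their median over input was 1.21 in NuMA ChIP and 1.24 in IgG ChIP, where the type I keratins had medians of -0.45 and 0.93. In the 500000 bp outside the keratins on chromosome 17, 3 of 19 windows were lower (15.8%) and 3 higher (15.8%), with a median of -0.04. On chromosome 12, 6 of 23 were lower (26.1%) and 1 higher (4.3%), with a median of -0.28. Over all windows 23.9% were lower and 16.8% higher.

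Genes that work with keratins did not share one direction. Over all windows 23.9% were lower and 16.8% higher, the background for each list below. Of 12 tested genes for other intermediate filaments, 6 were higher and 1 was lower in NuMA than in IgG ChIP (median 1.204). The highest was DES, the desmin of muscle, at 180 and 166 CPM against 58.4 and 57.3 CPM (log2 1.76 ± 0.46, edgeR adjusted p = 0.00208). The lowest was BFSP2, a filament protein of the eye lens, at 20.4 and 49.7 CPM against 99.0 and 98.2 CPM (log2 -1.40 ± 0.41, edgeR adjusted p = 0.00587). VIM, the vimentin that fibroblasts use, did not pass (log2 0.98 ± 0.80, edgeR adjusted p = 0.311).

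Desmosomes, the junctions that keratin filaments are anchored to, gave 9 higher and 1 lower of 13 tested (median 1.31). PKP4, a plakophilin relative of cell junctions, was highest (log2 3.16 ± 1.05, edgeR adjusted p = 0.0137), although its window overlaps another by 1792 bp and held few counts. DSC1, a desmosomal cadherin of the upper epidermis, was lowest (log2 -1.65 ± 0.63, edgeR adjusted p = 0.0314). Transcription factors that act on keratin genes were divided, with 3 higher, 3 lower and 10 not passed of 16. OVOL1, a repressor in differentiating epidermis, was highest (log2 1.91 ± 0.63, edgeR adjusted p = 0.0135) and EHF, an epithelial ETS factor, was lowest (log2 -4.44 ± 1.13, edgeR adjusted p = 0.00163).

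Genes of the cornified envelope, the protein shell that keratin bundles are tied into in dead skin cells, were lower in 6 of 8 tested windows, and the other 2 did not pass (median -2.18). The lowest was IVL, involucrin, at 6.48 and 0 CPM in NuMA against 74.6 and 70.9 CPM in IgG ChIP (log2 -3.99 ± 0.73, edgeR adjusted p = 2.25e-05). CDSN, the adhesion protein corneodesmosin, was the highest and did not pass (log2 -0.71 ± 0.40, edgeR adjusted p = 0.133). Of 7 tested epithelial marker genes, 4 were higher and 1 lower, from TP63 (log2 -2.79, edgeR adjusted p = 0.0182) to CLDN3, a tight junction claudin (log2 2.13, edgeR adjusted p = 0.00101). Of 6 fibroblast marker genes, 3 were lower and 3 did not pass, and THY1, a surface protein of fibroblasts, was lowest (log2 -2.72, edgeR adjusted p = 9.47e-04). On flank scaling the fibroblast median turned from -0.95 to 0.34, with 2 higher, while the medians of the other 5 lists kept their sign.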

How the data were processed

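Chromatin of MRC5 cells was sequenced in 6 libraries. The deposited promoter table holds raw counts per window. Per the submitters' processing notes, BWA 0.7.17-r1188, bedtools, featureCounts, MACS2 and build hg38 were used; which made which file, and how read pairs, duplicates and overlapping windows were treated, is not given in the sources used here. The deposited profile table holds signal summed over all genes, unscaled, and served only for flank scaling (500 outermost positions on each side).

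RefSeq starts (GRCh38.p14) gave symbols to 16958 windows (85%). KRT15, KRT16, KRT36, KRT72 and KRT86 had no window within 1000 bp. No reference table paired Ensembl identifiers with symbols. The counts entered edgeR 4.0.16, run in R 4.3.3 (filterByExpr, minimum count 10, TMM, quasi-likelihood test, Benjamini-Hochberg over all windows, threshold 0.05): NuMA against IgG over 4 libraries, and each against the mean of both inputs over 6, where the lone input of an arm is taken to vary as ChIP libraries do. The fits left 2 residual degrees of freedom. CPM is relative to all promoter counts of a library.

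Named were all keratins called, the 3 highest and lowest of each type, a fixed set of well-known keratins and the highest and lowest gene of each list. Members and lists were chosen with earlier results of these data known. Alternatives used DESeq2 1.42.0, limma 3.58.1, other scalings, filters and libraries left out. Labels with the same replicate number are not stated to share a culture or day.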

Additional observations from a re-analysis of the deposited data

How the results depend on the processing

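For NuMA against IgG ChIP, 27 keratins were lower and 0 higher (type I 12, type II 15, medians -1.70 and -1.16). Flank scaling gave 2 lower and 5 higher, with 1 of each type lower and medians of -0.40 and 0.13. It turned the sign of KRT75 (0.080), KRT6A (0.15), KRT2 (0.22), KRT1 (0.20), KRT76 (0.10), KRT79 (0.11), KRT78 (0.24) and KRT23 (0.16). Total-count scaling gave 26 lower. DESeq2 gave 13 (5 type I, 8 type II). NuMA and IgG ChIP each set against the input of its arm gave 3 (1 and 2). A minimum of 30 counts gave 19 of 24 (3 of 5 type I, 16 of 19 type II, medians -1.77 and -1.73). A window can meet that minimum through IgG ChIP alone. Of the 16 called windows still tested there, 0 lost the call, and 3 calls were gained. With each ChIP library left out in turn, 8 to 25 were lower and 0 to 1 higher, 2 to 9 of type I and 6 to 16 of type II. The cause was not tested. Limma gave 27, no filter 21, and windows that overlap no other 27. With library sizes taken after the filter, chosen after seeing the data, 24 were lower. Adding windows within 4000 bp for 4 more keratins, also chosen after seeing the data, gave 29 lower.

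Same-numbered libraries deviated together with a correlation of 0.171 over only 2 pairs, so the numbers do not establish a pairing. With a replicate block 30 were lower and 0 higher, 15 of each type, and no call was lost.

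Against input, NuMA ChIP gave 5 lower and 2 higher. Total-count scaling gave 14 and 0, DESeq2 1 and 0, no filter 9 lower, library sizes after the filter 10 lower, and leaving out each library 2 to 9 lower and 0 to 2 higher. IgG ChIP gave 0 in both directions, and 0 to 1 in each with a library left out. Naming by Ensembl identifier was not run. The median NuMA count per library was 10 and 12 for type I and 26.5 and 36.5 for type II.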
